A study of Mus musculus with 9 samples.

Results

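The genes described here are 9 genes tied to fetal-like regeneration and to YAP signalling in the intestine: Yap1, Wwtr1, Cyr61, Ctgf, Ankrd1, Clu, Ly6a, Anxa1 and Spp1. They were chosen by name, with earlier results of these data known. Each is a single row among the 46517 genes, and all 9 passed the filter on low counts in every comparison. The samples were 9 cultures of duodenal organoids (small epithelial spheres grown from crypts) of wild-type C57BL/6J mice, with 3 cultures in each of 3 groups. Single cells from these organoids received an adenovirus carrying GFP (labelled Adeno-GFP, here Ad-GFP), human HIF2 (Adeno-hHIF2, here Ad-hHIF2) or human HIF1 (Adeno-HhHIF1, here Ad-hHIF1), and RNA was sequenced a few days later. HIF1 and HIF2 are the transcription factors that cells stabilise when oxygen is short. Both carried proline-to-alanine substitutions that keep them from being degraded, and each was expressed transiently, so the groups differ in the factor expressed and not in oxygen. By the study's methods, its murine duodenal organoids were kept in reduced oxygen, controls included. All 3 groups shared the same medium, conditioned by L-WRN cells (a source of Wnt3a, R-spondin 3 and noggin) with an inhibitor of ROCK, an inhibitor of the TGF-β receptor and nicotinamide. ROCK and the actin skeleton act upstream of YAP, so every value below was measured with ROCK inhibited, in the controls as well. The labels number the cultures 1, 3 and 4 in each group and do not give the mouse behind each of them, so the p-values measure the spread between these cultures.

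YAP (from Yap1) and TAZ (from Wwtr1) are coactivators that carry no DNA-binding domain of their own. In the Hippo pathway the MST kinases activate the LATS kinases, which phosphorylate YAP and TAZ and hold them in the cytoplasm, and when that restraint is lifted they enter the nucleus, bind TEAD factors and switch on genes such as Cyr61, Ctgf and Ankrd1. Because the proteins are controlled mostly by phosphorylation and location, the mRNA level of Yap1 or Wwtr1 is not a measure of their activity. After injury the intestinal epithelium is known to take on for a time a state like that of the fetal gut, marked by Ly6a (Sca-1), Anxa1 and Clu, with YAP active and adult stem cell genes low. Spp1 encodes osteopontin, a secreted integrin ligand that is also read as a YAP-linked and injury-linked gene.

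The 250 bases before the start of 3 of the genes are shown because each carries letters that TEAD factors are known to bind. Those of Yap1 and Cyr61 also carry the core letters of the hypoxia response element, the site that HIFs bind. Yap1 and Wwtr1 encode the coactivators, and Cyr61 is a classical target that fell in Ad-hHIF2 organoids. Sequences are from RefSeq on build GRCm38.p6, 5′ to 3′ on the strand of the gene, and the capitals mark GGAATG (the TEAD motif) and ACGTG or GCGTG (the cores of the hypoxia response element), each searched on both strands. The Yap1 window is chr9:8004597-8004846, the Wwtr1 window, before the first of its 2 RefSeq starts, is chr3:57575911-57576160 and the Cyr61 window is chr3:145649986-145650235, all on the minus strand.
Yap1: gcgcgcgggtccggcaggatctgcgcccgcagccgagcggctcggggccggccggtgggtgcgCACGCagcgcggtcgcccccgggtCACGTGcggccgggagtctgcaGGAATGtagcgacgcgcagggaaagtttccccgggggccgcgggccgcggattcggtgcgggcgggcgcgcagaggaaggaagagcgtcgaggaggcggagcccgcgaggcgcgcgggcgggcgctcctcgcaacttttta
Wwtr1: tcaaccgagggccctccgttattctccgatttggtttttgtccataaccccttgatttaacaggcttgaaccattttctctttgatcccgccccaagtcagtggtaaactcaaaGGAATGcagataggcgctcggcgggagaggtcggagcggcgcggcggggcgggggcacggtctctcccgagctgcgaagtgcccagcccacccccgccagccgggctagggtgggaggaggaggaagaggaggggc
Cyr61: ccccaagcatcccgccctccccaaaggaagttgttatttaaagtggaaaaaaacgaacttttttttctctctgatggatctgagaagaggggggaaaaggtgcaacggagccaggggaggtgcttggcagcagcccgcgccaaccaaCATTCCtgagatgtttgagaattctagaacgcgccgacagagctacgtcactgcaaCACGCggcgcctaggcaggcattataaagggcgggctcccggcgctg

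The TEAD letters begin 141 bases before the start of Yap1, 136 before that of Wwtr1 and, on the other strand, 103 before that of Cyr61. Yap1 also holds CACGTG, in which ACGTG and its reverse complement overlap, and CACGC 187 bases before the start. Cyr61 holds CACGC 47 bases before the start. In CACGTG each ACGTG follows a C, as does the Cyr61 core on its own strand. The study describes cores that follow a C as E-box sites of other factor families, which HIFs rarely recognise. RefSeq windows were matched for 6 of the 9 genes, and 5 of the 6 held the TEAD letters and 3 the hypoxia letters in at least 1 of their windows. For Wwtr1 the hypoxia letters (GCGTG, 36 bases before the start) were in the window of its other start, which is not shown. Ankrd1 held the TEAD letters at 2 places and Anxa1 at 1 place, while neither Spp1 window held any of the letters. The Ankrd1 and Anxa1 windows and the second Spp1 window lie within the annotated gene in GENCODE M21, and they are not shown. Over all 32851 windows of this length, 12.6% held GGAATG, 16.6% held ACGTG, 28.2% held GCGTG and 38.6% held either hypoxia core. These are matches of letters, and no binding was measured.

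By Ensembl identifier in the GENCODE M21 annotation of GRCm38, the 9 genes are all protein coding. Yap1 lies at chr9:7931999-8004596, Wwtr1 at chr3:57455649-57575910 and Cyr61 at chr3:145646976-145649981, all on the minus strand. Ctgf lies at chr10:24595442-24598683 on the plus strand and Ankrd1 at chr19:36111961-36120099 on the minus strand. Clu lies at chr14:65968483-65981547 and Spp1 at chr5:104435118-104441050 on the plus strand, and Ly6a lies at chr15:74994877-74998031 and Anxa1 at chr19:20373428-20390944 on the minus strand. The values are expected counts over the whole gene, summed over its transcripts. Expected counts were whole numbers in all 9 samples for Anxa1, Clu, Cyr61, Ankrd1 and Wwtr1, and in 8 for Ly6a, but in 1 for Ctgf and in none for Spp1 and Yap1, whose reads were in part shared out with other genes.

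Expected counts summed to 21722618 to 39763093 in the Ad-GFP libraries, 30129257 to 51119041 in Ad-hHIF2 and 25206650 to 38357285 in Ad-hHIF1. Levels are given as CPM, normalised counts relative to the TMM-adjusted library total, as the mean ± SD of 3 cultures. Reads assigned to mouse Epas1, the gene for HIF2α, came to 1.77 ± 0.382 CPM (SD, n = 3) in Ad-GFP, 2.1 ± 0.834 in Ad-hHIF1 and 672 ± 78.1 in Ad-hHIF2 cultures. For mouse Hif1a the values were 219.5 ± 28 CPM in Ad-GFP, 309 ± 9.95 in Ad-hHIF1 and 227 ± 16.6 in Ad-hHIF2, and human and mouse transcripts cannot be told apart here. The epithelial keratin genes Krt8, Krt18 and Krt19 were at 1066, 1159.6 and 914 CPM in Ad-GFP, but Epcam was at 2.94, Vil1 at 4.36 and Cdx2 at 7.21 CPM, low for genes that define intestinal epithelium. Of the 7 epithelial markers, Cdh1 (E-cadherin) was higher in Ad-hHIF2 (log2 fold change 0.53, adjusted p = 0.00313), Epcam was lower (-0.81, adjusted p = 0.0472) and 5 did not pass, and 3 of 4 duodenal markers, Gata4, Gata6 and Onecut2, were higher (0.59, 0.74 and 0.60 on the log2 scale), where 15.9% of all genes were higher and 13.6% lower. Their part in the results below was not tested. The 8 stromal markers summed to 12.7 to 18.6 CPM in Ad-GFP, 10.1 to 13.1 in Ad-hHIF2 and 10 to 20.2 in Ad-hHIF1, with Pdgfrb, Dcn, Lum and Acta2 below 1 CPM in every culture, and the 4 endothelial markers summed to at most 3.11 CPM in any culture. The adult stem cell genes were low as well: Olfm4 was at 0 in every Ad-GFP and Ad-hHIF2 culture and Lgr5 was at 0.201 CPM in Ad-GFP. In the Ad-hHIF1 library of replicate 3, a pair of repeat-rich gene models, Gm10800 and Gm26870, took 16% of the counts, against 0.433% to 4.28% in the others.

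In Ad-GFP organoids the 9 genes spanned a wide range. Per length, in the deposited TPM (transcript abundance corrected for length), Clu at 84.2 ± 10.1 and Spp1 at 75.3 ± 6.83 stood highest and their samples overlapped. Ctgf followed at 14.5 ± 0.793, Cyr61 at 11.6 ± 1.14, Ankrd1 at 9.47 ± 0.144, Anxa1 at 7.92 ± 0.971, Wwtr1 at 4.62 ± 0.236, Ly6a at 2.07 ± 0.214 and Yap1 at 1.49 ± 0.222 TPM. From Ctgf downwards no gene overlapped the next one in these 3 cultures.

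The first question was what HIF2 did to the 9 genes. In Ad-hHIF2 against Ad-GFP organoids they split. Clu, Ctgf, Yap1 and Wwtr1 rose, by 1.18-fold to 1.79-fold, Ly6a, Spp1 and Cyr61 fell, by 1.6-fold to 2.39-fold, and Anxa1 and Ankrd1 did not pass the test (edgeR quasi-likelihood, adjusted p below 0.05 over 14987 genes). The genes were chosen with earlier results of these data known, so the shares that follow are a description. In all, 7 of 9 passed, where 29.5% of all genes tested did. Of these, 4 were higher, against 15.9% of all genes, and 3 were lower, against 13.6%. Only Ly6a changed by at least 2-fold and passed, downwards, as 3.83% of all genes did (2.90% upwards, 6.73% in all), and this differed on the TPM scales given below. The groups did not overlap for any of the 9 genes, 5 lying above and 4 below the controls, whereas 45.8% of all genes were free of overlap (23.4% above and 22.4% below). The median log2 fold change of the 9 genes was 0.21, and that of all genes -0.01. In these bulk samples, fewer cells of a type and less RNA per cell cannot be told apart.

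**Figure D1:**
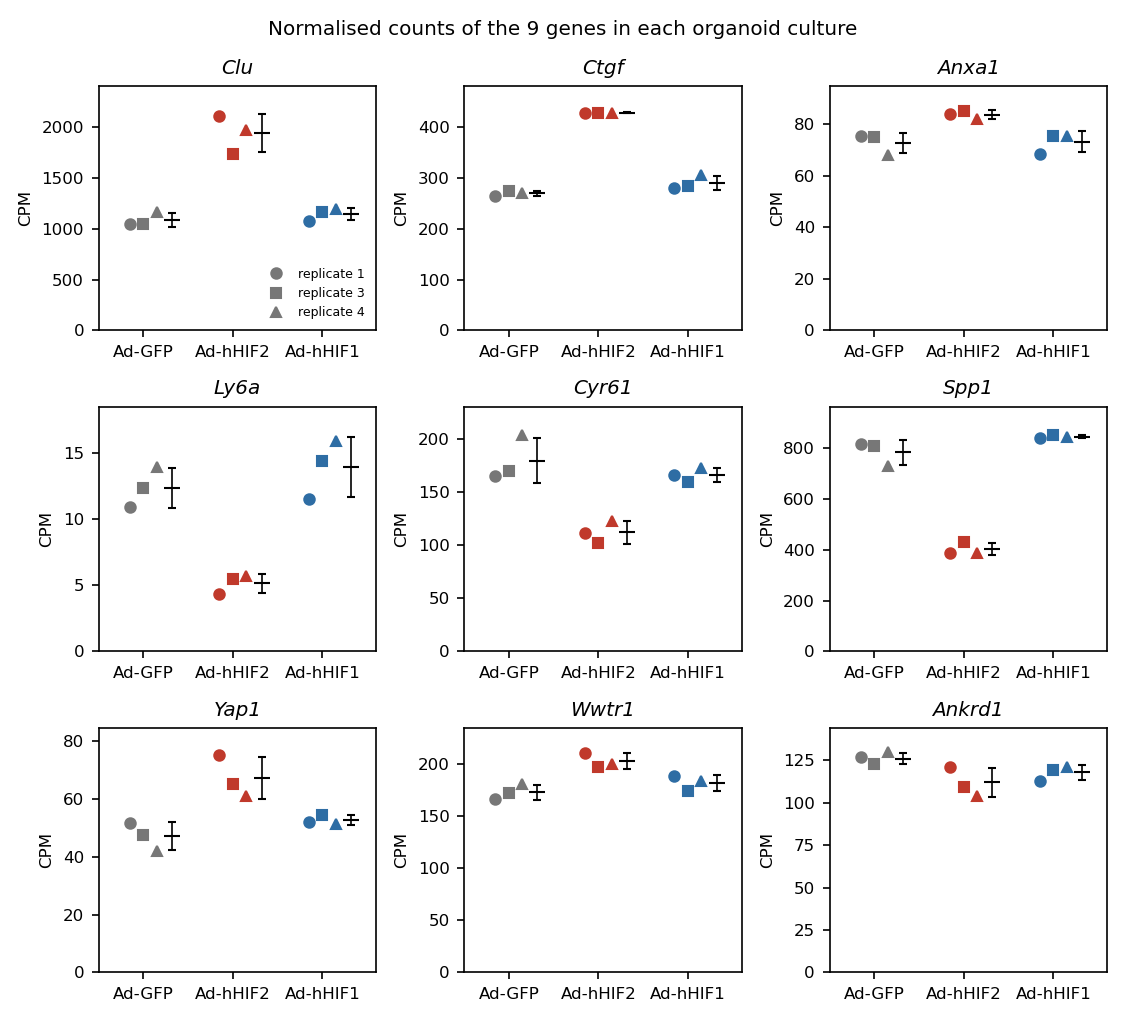
Normalised counts (CPM, linear axis from 0) of each of the 9 genes in the 9 organoid cultures, with 1 point per culture, its replicate number as the symbol, and the mean ± SD of 3 cultures beside them. Ctgf in Ad-hHIF2 cultures sits at 427 to 428 CPM, above all controls, and Ly6a in Ad-hHIF2 cultures sits at 4.34 to 5.66 CPM, below all controls, while Ad-hHIF1 cultures lie near Ad-GFP in every panel.

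The coactivators rose modestly. Yap1 was at 51.8, 47.4 and 42.1 CPM in Ad-GFP replicates 1, 3 and 4 and at 75.2, 65.2 and 61.1 CPM in the Ad-hHIF2 replicates. All Ad-hHIF2 cultures were above all controls, and replicate 1 was the highest in both groups. The log2 fold change was 0.52 (SE 0.101, adjusted p = 0.0061), a 1.43-fold rise. Wwtr1 was at 166, 172 and 181 CPM in Ad-GFP and at 211, 197 and 200 CPM in Ad-hHIF2. Here too the groups did not overlap, but the rise was small, with a log2 fold change of 0.23 (SE 0.074, adjusted p = 0.0435). That call was close to the threshold. It was lost with no count filter (adjusted p = 0.0548), with median-ratio scaling (0.0506) and on leaving out any single culture other than Ad-GFP replicate 4 (0.082 to 0.137).

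The classical YAP targets did not move together. Ctgf (CCN2), a secreted matrix protein of the CCN family, was at 264, 274 and 271 CPM in Ad-GFP and at 427, 428 and 428 CPM in Ad-hHIF2. Its Ad-hHIF2 cultures were nearly equal to each other and well above the controls, with a log2 fold change of 0.67 (SE 0.0717, adjusted p = 0.000264). Cyr61 (CCN1), of the same family, was at 165, 170.1 and 204 CPM in Ad-GFP and at 111, 102 and 123 CPM in Ad-hHIF2. All Ad-hHIF2 cultures were below all controls, and Ad-GFP replicate 4 was the highest of its group. Cyr61 fell by 0.68 on the log2 scale (SE 0.109, adjusted p = 0.00229). Ankrd1, a nuclear ankyrin repeat protein, was at 127, 123 and 129.6 CPM in Ad-GFP and at 121, 109 and 104 CPM in Ad-hHIF2. The groups were free of overlap by a narrow gap, and the log2 fold change of -0.18 (SE 0.0783) did not pass the test (adjusted p = 0.125).

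The genes of the fetal-like state split as well. Clu, which encodes the secreted chaperone clusterin and marks revival stem cells, was at 1051, 1045 and 1164 CPM in Ad-GFP and at 2115, 1741 and 1974 CPM in Ad-hHIF2. Every Ad-hHIF2 culture was far above the controls, and the log2 fold change was 0.84 (SE 0.0997, adjusted p = 0.000461), a 1.79-fold rise that was the highest of the 9. Ly6a, a surface protein of the Ly6 family, was at 10.9, 12.3 and 13.9 CPM in Ad-GFP and at 4.34, 5.43 and 5.66 CPM in Ad-hHIF2. It was the rarest of the 9 genes by counts, resting on 175 to 277 counts in the Ad-hHIF2 libraries and 278 to 443 in Ad-GFP, and it fell by 1.26 on the log2 scale (SE 0.145, adjusted p = 0.000404). Ly6a has close relatives in the Ly6 family, and how reads were shared between them was not tested. Anxa1, the phospholipid-binding annexin A1, was at 75.4, 75 and 68.2 CPM in Ad-GFP and at 83.9, 85.3 and 81.9 CPM in Ad-hHIF2. Its groups did not overlap, but the log2 fold change of 0.21 (SE 0.0709) missed the threshold (adjusted p = 0.0589), whereas DESeq2 called it (adjusted p = 0.0449). On centred TPM it was at 0.04 (adjusted p = 0.779), and without single cultures its adjusted p was 0.0853 to 0.152.

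Spp1 was at 818, 809 and 729 CPM in Ad-GFP and at 389.7, 433 and 389 CPM in Ad-hHIF2. The Ad-hHIF2 cultures lay at about the same level and all below the controls, and Spp1 fell by 0.95 on the log2 scale (SE 0.089, adjusted p = 0.000133), just under 2-fold. Spp1 and Ly6a are also expressed by blood cells. Of the 6 immune markers, 4 were below 1 CPM in every Ad-GFP culture and 5 in every Ad-hHIF2 culture, and their sum was 9.45 to 15.7 CPM in Ad-GFP and 11.4 to 15.2 CPM in Ad-hHIF2. The pan-leukocyte gene Ptprc was at 0.768 ± 0.341 CPM in Ad-GFP and at 0.0425 ± 0.0371 CPM in Ad-hHIF2, on 18 to 24 and 0 to 3 counts a library, and it fell by 3.92 on the log2 scale (adjusted p = 0.00472). Its part in these results was not tested. Cd68, the most abundant of the markers, was at 10.5 ± 2.91 and 13.5 ± 2.1 CPM.

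**Figure D2:**
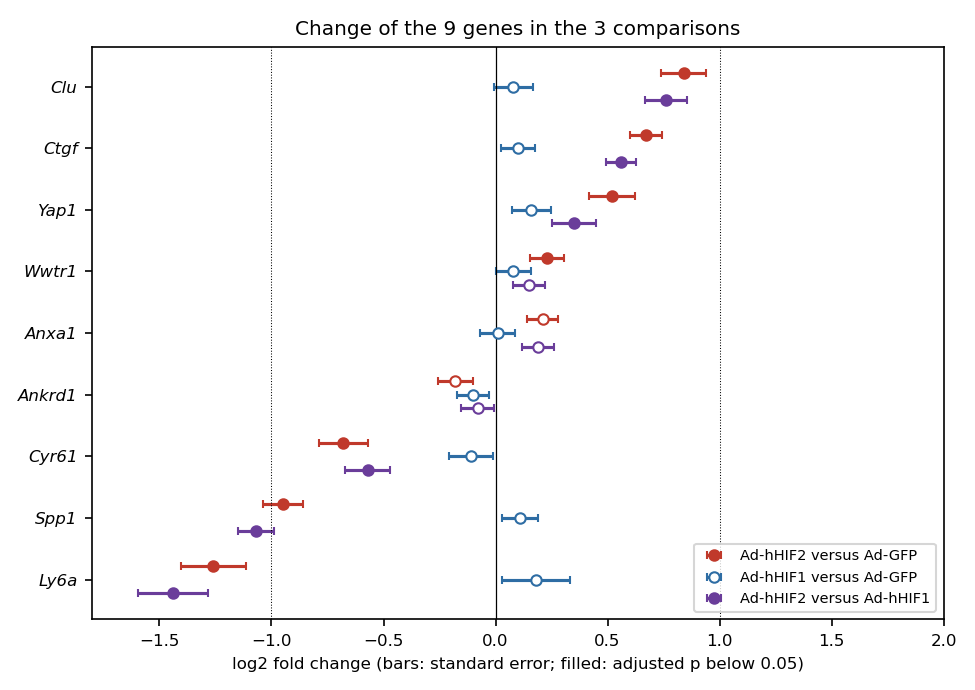
Log2 fold change of each of the 9 genes in the 3 comparisons, from edgeR fits, with the standard error as bars, filled points for an adjusted p below 0.05 and dotted lines at a 2-fold change. In Ad-hHIF2 against Ad-GFP the values run from -1.26 for Ly6a to 0.84 for Clu, whereas all Ad-hHIF1 against Ad-GFP values lie between -0.11 and 0.18.

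The size of the split depended on how the values were scaled. Genes with an effective length under 200 bases took 90.2% to 94.8% of the TPM in each library. Among the Ad-hHIF2 libraries replicate 1 stood apart, with 31.1% of its expected counts in such genes against 46.2% and 43.9% in replicates 3 and 4. On log2(TPM + 1) the median of all genes in this comparison moved to 0.12. Tested with limma on that scale, Clu (1.21, adjusted p = 0.0152) and Ctgf (1.07, adjusted p = 0.0338) passed at over 2-fold upwards and no member passed downwards. Ly6a was at -0.49 (adjusted p = 0.219), Spp1 at -0.50 (0.399) and Cyr61 at -0.20 (0.726), and the calls of Yap1 (0.70, adjusted p = 0.0724) and Wwtr1 (0.59, adjusted p = 0.229) were lost at larger fold changes. With 0.1 added in place of 1, Ly6a was at -0.76 (adjusted p = 0.186), Spp1 at -0.51 (0.311), Cyr61 at -0.22 (0.701) and Yap1 at 0.98 (0.0694), while Clu (1.21, adjusted p = 0.00212) and Ctgf (1.12, adjusted p = 0.0136) passed. Ankrd1 turned to 0.25 (adjusted p = 0.65) with 1 added and to 0.27 (0.634) with 0.1 added. A further setting, chosen after seeing the data, centred each sample on the geometric mean of tested genes above 0 TPM in every sample. There, with limma, 4 genes were higher and 3 lower, as with counts, but none reached 2-fold, and Ly6a was at -0.72 (adjusted p = 0.00143).

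A ratio of a pair of genes within a culture does not depend on that scaling. The pairs were chosen with the fold changes of these genes known, most from genes that had moved in opposite directions, so that groups free of overlap follow from the choice, and the ratios are given as a description with no test. Ctgf to Cyr61, in TPM, was 1.33, 1.34 and 1.11 in the Ad-GFP cultures and 3.2, 3.5 and 2.9 in the Ad-hHIF2 cultures, 2.55-fold higher. Clu to Spp1 was 0.989, 0.999 and 1.41 in Ad-GFP and 4.17, 3.08 and 3.9 in Ad-hHIF2, 3.3-fold higher. Clu to Ly6a went from 40.6 ± 2.8 to 168 ± 38.3 (SD, n = 3), 4.07-fold higher. Each fold of a ratio comes from the difference of mean log2 ratios, and so can differ from the quotient of the printed means. Ankrd1 to Ctgf was 0.652 ± 0.025 in Ad-GFP and 0.363 ± 0.0284 in Ad-hHIF2. Wwtr1 to Yap1 was 3.16 ± 0.584 and 2.48 ± 0.179, and these groups overlapped. In Ad-hHIF1 cultures, Clu to Spp1 was 0.982, 1.08 and 1.1 and overlapped Ad-GFP. Ctgf to Cyr61 was 1.39, 1.48 and 1.48 there, above every Ad-GFP culture by a small margin (1.16-fold). Ankrd1 to Ctgf was 0.562, 0.586 and 0.55 there, below every Ad-GFP culture (0.624 to 0.669).

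**Figure D3:**
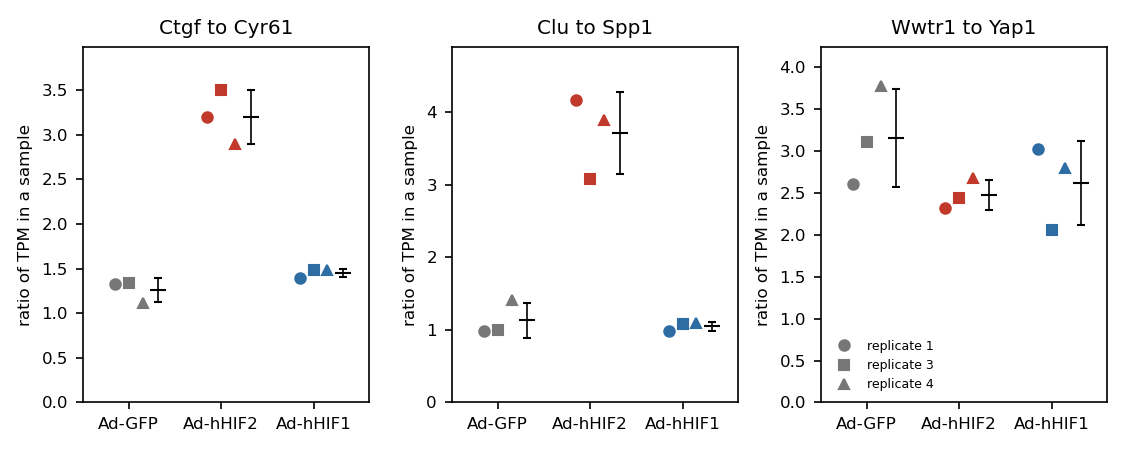
Ratio of the TPM of a pair of genes within each organoid culture (linear axis from 0), with 1 point per culture and the mean ± SD of 3 cultures per group. Ctgf to Cyr61 is 2.9 to 3.5 in Ad-hHIF2 and 1.11 to 1.34 in Ad-GFP, and Clu to Spp1 is 3.08 to 4.17 in Ad-hHIF2 and 0.989 to 1.41 in Ad-GFP, while Wwtr1 to Yap1 overlaps between groups.

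Further genes of the pathway were taken from lists, also chosen with earlier results known, so their shares are a description too. Of 19 other genes of a published YAP and TAZ target signature, all tested, 6 were higher, 2 lower and 11 not past the test in Ad-hHIF2 organoids, where 15.9% of all genes were higher and 13.6% lower, and their median log2 fold change was -0.06. The highest was Igfbp3, a secreted binding protein of insulin-like growth factors, which went from 198 ± 10.4 to 1143 ± 33.3 CPM (log2 fold change 2.53, adjusted p = 4.81e-07). F3, the gene for tissue factor, rose by 1.25, Crim1, a BMP-binding membrane protein, by 1.20, the forkhead factor Foxf2 by 0.98 and the receptor tyrosine kinase Axl by 0.63 on the log2 scale. The stress gene Gadd45a fell by 1.06, from 62 ± 4.36 to 29.7 ± 1.45 CPM.

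Of 21 Hippo kinases and regulators, 9 were higher, none was lower and 12 did not pass, against the same 15.9% higher and 13.6% lower of all genes, and their median log2 fold change was 0.22. Lats2, Amotl2 and Ptpn14, none of which passed, stand in both this list and the signature. Frmd6, a FERM-domain protein linked to Hippo signalling, went from 39.9 ± 2.9 to 103 ± 12.7 CPM (log2 fold change 1.37, adjusted p = 3.66e-05). Map4k4, a kinase that can act on LATS, rose by 0.82, from 100.4 ± 6.65 to 177 ± 13.2 CPM. The kinase cofactor Mob1b rose by 0.59, the scaffold Sav1 by 0.50, the scaffold Wwc1 (KIBRA) by 0.47 and the kinase Taok1 by 0.34 on the log2 scale. These rises ran alongside those of Yap1 and Wwtr1. Among TEAD factors and their Vgll cofactors, 5 of 8 were tested. Vgll4, which competes with YAP for TEAD, went from 23.5 ± 1.25 to 32.6 ± 0.0902 CPM (log2 fold change 0.48, adjusted p = 0.00139), and Tead2 fell by 0.20 (adjusted p = 0.0397).

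Of 16 other genes described in fetal spheroids or in regenerating epithelium, 14 were tested, and 6 were higher, 4 lower and 4 not past the test, where 29.5% of all genes passed (15.9% higher and 13.6% lower). Gja1, the gap junction gene for connexin 43, went from 21.1 ± 2.16 to 73.7 ± 5.73 CPM (log2 fold change 1.81, adjusted p = 5.00e-06). Anxa2, the relative of Anxa1, rose by 0.96, from 565 ± 51.8 to 1097 ± 36.6 CPM, the EGF-family ligand Ereg by 0.73 and Basp1 by 0.71 on the log2 scale. Il1rn, the interleukin-1 receptor antagonist, fell by 1.06, from 31.2 ± 1.15 to 15 ± 0.996 CPM, and the surface protein Msln (mesothelin) by 0.70.

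Of the 4 CCN paralogs of Cyr61 and Ctgf, only Wisp1 (CCN4) was tested, and it fell from 1.99 ± 0.317 to 0.431 ± 0.0415 CPM (log2 fold change -2.19, adjusted p = 0.0014), on 12 to 24 counts in each Ad-hHIF2 library. Of 8 adult crypt stem cell genes, 4 were tested and none passed with edgeR, although 2 had an unadjusted p below 0.05, which 41.2% of all genes had. The most abundant, Rgmb, was at 8.85 ± 1.33 and 7.24 ± 1.14 CPM. Lgr5 was at 0.0819, 0.222 and 0.3 CPM in Ad-GFP and at 1.19, 0.333 and 0.549 CPM in Ad-hHIF2, on 3 to 8 and 17 to 52 counts a library.

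**Figure D4:**
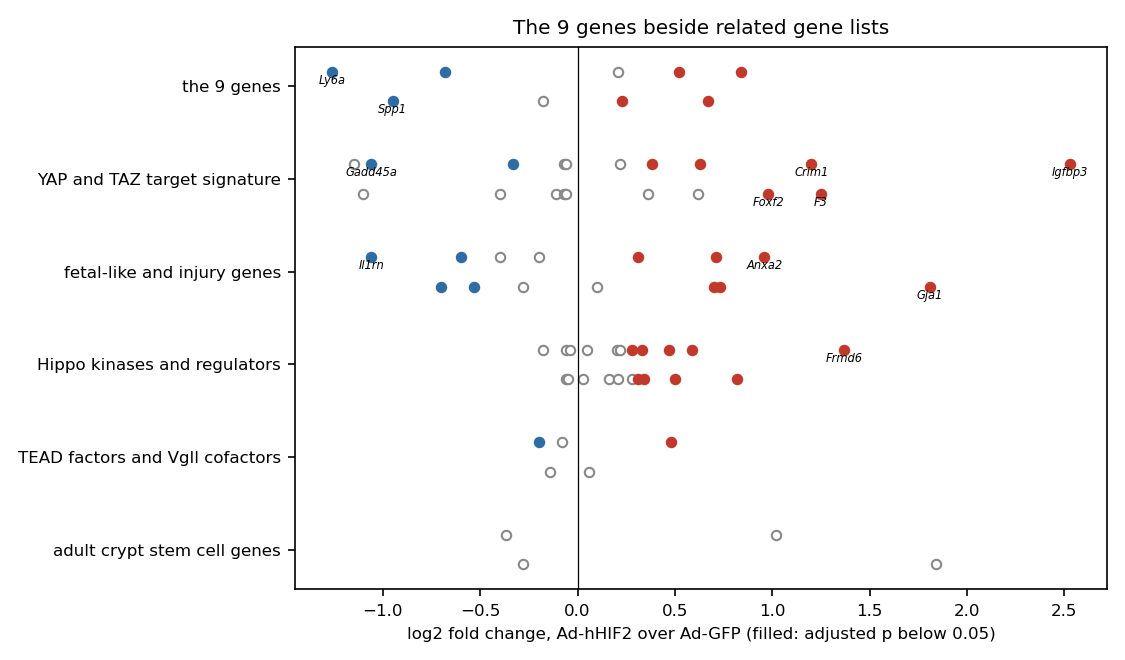
Log2 fold change of Ad-hHIF2 over Ad-GFP for the 9 genes and for the tested genes of 5 related lists, with 1 point per gene, filled where the adjusted p is below 0.05 (red higher, blue lower). The 9 genes, the target signature and the fetal-like and injury genes have filled points on both sides of 0, whereas the 9 filled points of the Hippo kinases and regulators all lie above 0.

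The second question was whether HIF1 moved the same genes. In Ad-hHIF1 against Ad-GFP organoids, none of the 9 genes passed the edgeR test, as none of 15233 genes did (0%). The common biological coefficient of variation, edgeR's measure of spread between cultures, was 0.24 here and 0.165 in Ad-hHIF2 against Ad-GFP. At an unadjusted p below 0.05 there were 0 of the 9 genes and 1308 of all genes (8.59%). DESeq2 called 144 genes and none of the 9, but it gave Ly6a no adjusted p, so Ly6a could not be called. Log2 fold changes ran from -0.11 for Cyr61 to 0.18 for Ly6a, with adjusted p of 0.638 to 0.98. Ly6a was at 11.5, 14.4 and 15.9 CPM in Ad-hHIF1, Spp1 at 840.4, 852 and 845, Clu at 1077, 1163 and 1196 and Ctgf at 279, 283 and 306. Ctgf and Spp1 lay above and Ankrd1, at 113, 119 and 121 CPM, below all controls, 3 of the 9 genes against 17.4% of all genes (8.38% above and 9.06% below). For Yap1 (52.2, 54.5 and 51.2 CPM), Wwtr1 (189, 174 and 184), Cyr61 (166, 159 and 173) and Anxa1 (68.6, 75.5 and 75.6) the groups overlapped, as they did for Clu and Ly6a. None of the tested genes of the related lists passed the edgeR test; they were not looked up under DESeq2. Among the 14 tested fetal-like and injury genes, 7 had an unadjusted p below 0.05, all 7 with Ad-hHIF1 above Ad-GFP without overlap. The largest of these, singled out after its value was seen, was Sprr1a, at 70.4 ± 6.16 CPM against 30.9 ± 6.59 in Ad-GFP (log2 fold change 1.19, adjusted p = 0.161), and it was at 33 ± 4.7 CPM in Ad-hHIF2. Gja1 was at 27.3 ± 1.89 CPM.

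Because passing in the HIF2 comparison and not in the HIF1 comparison does not show a difference between the groups, Ad-hHIF2 was compared with Ad-hHIF1 directly. Reads assigned to Epas1 were at 672 CPM in Ad-hHIF2 against 1.77 in Ad-GFP. Those assigned to Hif1a were at 309 CPM in Ad-hHIF1 against 219.5 in Ad-GFP. The factor and the level it was expressed at cannot be told apart here. The direct test placed 3 of the 9 genes above and 3 below Ad-hHIF1 (edgeR, 15556 genes), where 25.8% of all genes passed, 13.7% higher and 12.0% lower. Clu was higher by 0.76 (SE 0.0935, adjusted p = 0.000248), Ctgf by 0.56 (SE 0.0686, adjusted p = 0.000237) and Yap1 by 0.35 (SE 0.0968, adjusted p = 0.0229) on the log2 scale. The Yap1 call was lost without Ad-hHIF2 replicate 1 (adjusted p = 0.0883), Ad-hHIF2 replicate 3 (0.0644), Ad-hHIF1 replicate 1 (0.0852) or Ad-hHIF1 replicate 4 (0.0631). Ly6a had a log2 fold change of -1.44 (SE 0.156, adjusted p = 0.000111), Spp1 of -1.07 (SE 0.0794, adjusted p = 7.82e-06) and Cyr61 of -0.57 (SE 0.101, adjusted p = 0.00233). On deposited TPM with 1 added (limma), only Ly6a kept its call (-0.78, adjusted p = 0.024), while Clu (adjusted p = 0.113), Ctgf (0.80, adjusted p = 0.138), Yap1 (0.36, 0.398), Spp1 (-0.80, 0.153) and Cyr61 (-0.28, 0.57) lost theirs. On centred TPM only the Yap1 call was lost (0.20, adjusted p = 0.209). On counts, Ly6a and Spp1 differed by at least 2-fold between the HIFs, which 3.70% of all genes did downwards and 2.42% upwards (6.11% in all). Anxa1 (0.19, adjusted p = 0.0711), Wwtr1 (0.15, adjusted p = 0.14) and Ankrd1 (-0.08, adjusted p = 0.515) did not pass. Groups were free of overlap for 8 of the 9 genes, all but Ankrd1, 5 above and 3 below, and for 41.8% of all genes (22.7% above and 19.1% below). At an unadjusted p below 0.05 there were 7 of the 9 genes, against 37.4% of all genes.

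In the related lists this direct comparison gave 12 of 21 Hippo kinases and regulators higher and none lower, and 7 of 19 signature targets higher and 3 lower, where 13.7% of all genes were higher and 12.0% lower. The kinase gene Lats2, itself a YAP target, is in both lists and is counted in both (higher by 0.39, adjusted p = 0.00744). Frmd6 was higher by 1.27 and Igfbp3 by 2.36 on the log2 scale. Among the 14 tested fetal-like and injury genes, 4 were higher and 6 lower. Gja1 was higher by 1.43, whereas Ereg, at 14.8 ± 2.38 CPM in Ad-hHIF1 and 18 ± 1.3 in Ad-hHIF2, did not pass (0.29, adjusted p = 0.143). Of 4 duodenal markers, Gata4, Gata6 and Onecut2 were higher, as 13.7% of all genes were. Of 7 epithelial markers, Cdh1 was higher (0.45) and Krt19 lower (-0.37). Of 2 tested immune markers, Cd68 was higher (0.60, adjusted p = 0.0374) and Ptprc lower (-2.64, adjusted p = 0.0472). Of 5 tested adult stem cell genes, only Ascl2 passed (-4.49, adjusted p = 0.0316), on 0 to 3 counts in Ad-hHIF2. No stromal or endothelial marker passed. The part of these markers was not tested. Both comparisons with Ad-GFP shared the same 3 control cultures, and the direct comparison shares its HIF cultures with them, so the 3 comparisons are not independent of each other.

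The genes whose pattern over the 9 cultures was most like those described here were found by the Pearson r of log2(CPM + 0.5) over 12384 genes, as a description. The points share the differences between groups, which were not removed. Ctgf was most like Pgf, a VEGF-family ligand (r = 0.995), Spp1 most like Pla2g4a (0.995) and next Wisp1 (0.993), and Clu most like Arhgef11 (0.991). Yap1 was most like Casp6 (0.986), Cyr61 like RP23-200M5.7 (0.988), Anxa1 like Rrm2 (0.977) and Wwtr1 like Gars (0.971). Ankrd1 reached 0.953 with Ndufs6. None of the 9 genes was among the 3 nearest of another.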

How the data were processed

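RNA was sequenced from 9 organoid cultures, 3 in each of 3 groups taken from the labels. After removal of reads of low quality, the authors estimated abundance with RSEM (version, genome build and strandedness not given in the sources used here), and deposited expected counts and TPM per gene, with FPKM, which was not used. Of the expected counts, 85.7% were whole numbers. They were rounded and tested with edgeR 4.0.16 in R 4.3.3 (filterByExpr, TMM factors, quasi-likelihood test, Benjamini-Hochberg over all genes tested). The authors' own EBSeq comparisons were not used here. Each HIF was compared with Ad-GFP on its own 6 samples, which share the controls, and Ad-hHIF2 with Ad-hHIF1 on all 9 samples. Standard errors come from the log2 fold change and the F statistic. The test was tried on simulated counts first. Counts in a library limit the precision only in part. No 2 libraries of a group agreed within counting noise (chi-square per degree of freedom at least 26.3), so spread between cultures limits it too.

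Settings varied one at a time were dropping the count filter, requiring 10 counts per sample throughout, scaling by median ratios, DESeq2 1.42.0, a replicate block, other samples in the fit and leaving out each culture. With limma 3.58.1 on the deposited TPM, with 1 or 0.1 added before log2, both the test and the measure changed. So they did for TPM centred on the geometric mean of tested genes above 0 in every sample, added after seeing the data. The 9 genes and the lists were chosen with earlier results of these data known. All 9 genes are named. From each related list, the rule named up to 6 genes past the test with the largest change in Ad-hHIF2 and the gene with the highest mean CPM, and for likeness the 3 genes of highest r. Other genes, among them Sprr1a, Lgr5, Olfm4, Lats2, Amotl2, Ptpn14 and the markers, were named outside it with their values seen. Some results for single genes are not reported here.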

Additional observations from a re-analysis of the deposited data

How the results depend on the processing

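Clu, Ctgf, Ly6a, Spp1 and Cyr61 kept their direction and their calls in both comparisons that involve Ad-hHIF2 under each count-based alternative and each culture left out. The number of the 9 genes higher in Ad-hHIF2 than in Ad-GFP was 3 to 4 with a culture left out, and 3 were lower each time. Against Ad-hHIF1 it was 2 to 3 higher and 3 lower. On deposited TPM, with either pseudocount, limma gave 2 higher and 0 lower against Ad-GFP and 0 higher and 1 lower against Ad-hHIF1, and the cause was not tested beyond the shift of all genes (0.12 and 0.30 against Ad-GFP, 0.06 and 0.17 against Ad-hHIF1, for 1 and 0.1 added). Centred TPM gave 4 and 3 against Ad-GFP and 2 and 3 against Ad-hHIF1. The number of all genes called against Ad-GFP was 4416 with edgeR (2381 higher, 2035 lower), 1010 with 1 added to TPM (814 higher, 196 lower), 1109 with 0.1 added (899 higher, 210 lower) and 2998 on centred TPM (1869 higher, 1129 lower). Against Ad-hHIF1 it was 4008 (2137 higher, 1871 lower), 367 (315 higher, 52 lower), 460 (381 higher, 79 lower) and 2546 (1649 higher, 897 lower).

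Values near 0 turned. Ankrd1 turned on TPM with 1 and 0.1 added, to 0.25 and 0.27 in Ad-hHIF2 against Ad-GFP, to 0.18 and 0.18 against Ad-hHIF1, and to 0.08 and 0.09 in Ad-hHIF1 against Ad-GFP. Cyr61 in that last comparison turned to 0.08 with either. Anxa1 there was at 0.01 and ran from -0.04 to 0.05 with a culture left out, and was at -0.03 on centred TPM. No count of the 9 genes in Ad-hHIF1 against Ad-GFP left 0, although 384 of all genes were called with no count filter and 7 with all 9 samples in a single fit.

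Whether the replicate numbers pair the cultures could not be settled with 3 cultures in each group. Deviations from the group means correlated at 0.096, 0.133 and 0.291 between Ad-hHIF2 and Ad-GFP cultures of equal number. Ad-hHIF2 replicate 3 correlated best with Ad-GFP replicate 1 (0.193), although the mean was 0.173 for equal and -0.086 for unequal numbers. These means were -0.186 and 0.094 between Ad-hHIF2 and Ad-hHIF1, and 0.043 and -0.014 between Ad-hHIF1 and Ad-GFP. With the replicate block, 3 genes were higher and 3 lower in both comparisons of Ad-hHIF2, 4631 of all genes were called against Ad-GFP, and Wwtr1 was at 0.23 (adjusted p = 0.0627). Depth limits Ly6a most among the 9 genes.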
